A study of Mus musculus with 4 samples.

Results

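Cd36, Cd55 and Dlg2 are 3 genes that name subsets of mature olfactory sensory neurons (OSNs) in this study's cell annotation, and their transcripts were followed here through each cell type, neuron cluster and odorant receptor population of the mouse olfactory epithelium. The members were taken by name, as 3 of the 55511 genes in the count tables. Levels are given as unique molecular identifiers (UMIs, each the mark of 1 captured transcript) per 10000 UMIs of the same cells, summed within a mouse, so that the mouse is the replicate. The values come from the 3′ ends of transcripts and were not divided by gene length, and levels of different genes are therefore not compared with each other.

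The cells came from the main olfactory epithelium in the nasal cavity of 4 male C57BL/6 mice (C57BL/6J in the study's methods) aged 8 weeks, all untreated and all in 1 group, with 1 droplet library per mouse. Dissociated cells were sorted as live and nucleated before capture, and no cell type was selected. The libraries held 23157467 to 32382702 UMIs, and 54 of 21755 barcode sequences occurred in 2 libraries. Mature OSNs were the largest deposited type, with 1887 to 3230 cells per mouse, 10519 in all, at a median of 4004 to 6591 UMIs per cell.

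Cd36 encodes a membrane glycoprotein that binds long-chain fatty acids and oxidized lipids and helps to take them up, and it is best known from fat tissue, muscle, macrophages and capillaries. Cd55, or decay-accelerating factor, is a membrane-anchored protein that speeds the decay of complement convertases on the cell's own surface and is also a ligand of the adhesion receptor Adgre5. Dlg2 encodes PSD-93, a scaffold of the membrane-associated guanylate kinase family that holds receptors and channels at synapses. A mature OSN transcribes, as a rule, a single odorant receptor gene from a single allele, and the neurons that share a receptor form a population whose axons meet in the same glomeruli of the olfactory bulb. Receptor genes fall into class I, which in the mouse lie in a single cluster on chromosome 7, and class II, which are spread over many clusters.

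On the GRCm38 build, Cd36 (ENSMUSG00000002944) lies on the minus strand of chromosome 5 at 17781690 to 17888801, Cd55 (ENSMUSG00000026399) on the minus strand of chromosome 1 at 130439027 to 130462744, and Dlg2 (ENSMUSG00000052572) on the plus strand of chromosome 7 at 90476672 to 92449247, a span of 1973 kb. Cd55 has a close copy, Cd55b, next to it at 130388537 to 130423009, so the stretches that read differently between the pair decide whether a read is counted for the right gene. The start regions of both genes show how alike they are. The 30 bases that end just before the start of Cd55 (GRCm38.p6, RefSeq, chr1:130462745-130462774, minus strand) and the best-matching bases around the RefSeq start of Cd55b (chr1:130423034-130423063, minus strand) are written from 5′ to 3′, with the differing bases in capitals. RefSeq places the start of Cd55b farther upstream than the annotation that gave the gene positions above, so its window lies outside those.
Cd55: ccCaggGtgaCgagGgccctgccccgcccC
Cd55b: ccTaggTtgaAgagAgccctgccccgcccG
The windows were equal at 25 of 30 bases. At the 3′ end, which is what these libraries read, 205 of the 1804 distinct 50-base stretches in the last 500 bases of the 5 annotated Cd55 transcripts also occurred in a Cd55b transcript, or 11.4%. Reads of those stretches cannot be assigned to either copy, and in all cells Cd55 received 16010 UMIs and Cd55b 28.

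Among the cell types of the epithelium, Cd36 was highest in the type labelled HBC2 and in the mature OSNs. The authors' label HBC2 stands for a group of horizontal basal cells, which are the reserve stem cells of the tissue. The HBC2 level was 1.74, 2.64, 1.86 and 2.06 UMIs per 10000 in mice 1 to 4, a mean of 2.08 ± 0.40 (SD, n = 4), and 61.0% ± 8.1 of these cells had a Cd36 UMI. The mature OSNs stood at 0.587, 0.873, 0.751 and 0.704, a mean of 0.729 ± 0.118, with a UMI in 8.15% ± 1.37 of cells. All 4 HBC2 values lay above all 4 of the mature OSNs. The other horizontal basal type, HBC1, came next at 0.327 ± 0.123, with a UMI in 11.1% ± 4.3 of cells. Both horizontal basal types carried a mixed marker profile. The summed level of the horizontal basal cell list (Krt5, Krt14 and others) was 27.0 in HBC2 against 50.8 in HBC1 and 0.0882 in sustentacular cells, the support cells of the epithelium, while the sustentacular list was at 105.1 in HBC2, 56.1 in HBC1 and 115 in sustentacular cells. In the sustentacular cells themselves Cd36 was at 0.0227 ± 0.0272, and 1.45% of them had a UMI. Endothelial markers summed to 0.0656 in HBC2, with 2 of the 5 markers at 0. Monocyte or macrophage markers summed to 6.04 (2.09 to 9.10 over mice) against 0.264 in HBC1, and fibroblast markers to 7.84 (7.19 to 8.46) against 1.47. The part of other cell types in the HBC2 level was not tested.

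Along the neuronal lineage Cd36 was near 0 until the later of the immature stages. Globose basal cells, the dividing progenitors, held 2 Cd36 UMIs in 202 cells, and the immediate neuronal precursors 13 UMIs, all in 1 of 284 cells, a cell of mouse 1 that was among the 4% of barcodes most like a doublet (a droplet that held more than 1 cell). The earlier immature OSNs (iOSN1) were at 0.0464 ± 0.0481 and the later ones (iOSN2) at 0.227 ± 0.031, and every iOSN2 value lay above every iOSN1 value. The iOSN1 mean, from 30 UMIs in 9 cells, was 0.0247 without mouse 4, which stood at 0.111. In the microvillar type Mv1 Cd36 was seen in mouse 2 alone, at 0.995. The second microvillar type, Mv2, was at 0.0460 ± 0.0193, which fell to 0.0114 when the 4% of barcodes most like a doublet were left out.

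Cd55 was spread over more types than Cd36. HBC2 was highest, at 2.23, 2.56, 3.03 and 2.36 UMIs per 10000, a mean of 2.54 ± 0.35, followed by the mature OSNs at 1.86, 2.27, 2.26 and 1.88, a mean of 2.07 ± 0.23. HBC2 was the higher of the pair within each of the 4 mice, though the ranges over mice overlapped. The Mv2 cells came next at 1.58 ± 0.13 with a Cd55 UMI in 49.2% ± 7.8 of cells, a range below that of the mature OSNs. Mv1, HBC1, the neuronal precursors and the immature stages lay between 0.501 and 0.933, and within this group each overlapped with the next. Globose basal cells were at 0.279 ± 0.033. Sustentacular cells were lowest, at 0.0811 ± 0.0349, and 4.02% of them had a UMI at a median of 5587 UMIs per cell. Whether those UMIs came from free RNA was not tested.

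Dlg2 was the member most confined to neurons, in that the mature OSNs held 88.5% of its UMIs in the whole data set, against 69.6% for Cd55 and 67.9% for Cd36. The mature OSNs were at 4.32, 3.75, 4.41 and 4.53 UMIs per 10000, a mean of 4.25 ± 0.35, and 45.1% ± 5.0 of them had a UMI at a median of 4861 UMIs per cell. The iOSN2 cells followed at 0.988 ± 0.178 and Mv2 at 0.629 ± 0.062, each with a range apart from the type above it. The iOSN1 cells and the precursors were at 0.247 ± 0.124 and 0.268 ± 0.180, and in the sustentacular cells, at 0.138 ± 0.132, 4.71% of cells had a UMI. The sustentacular mean was 0.0738 without mouse 4, which stood at 0.330. The types were defined from all genes of the same cells, the members included, so these differences between types are descriptions and carry no test.

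**Figure D1:**
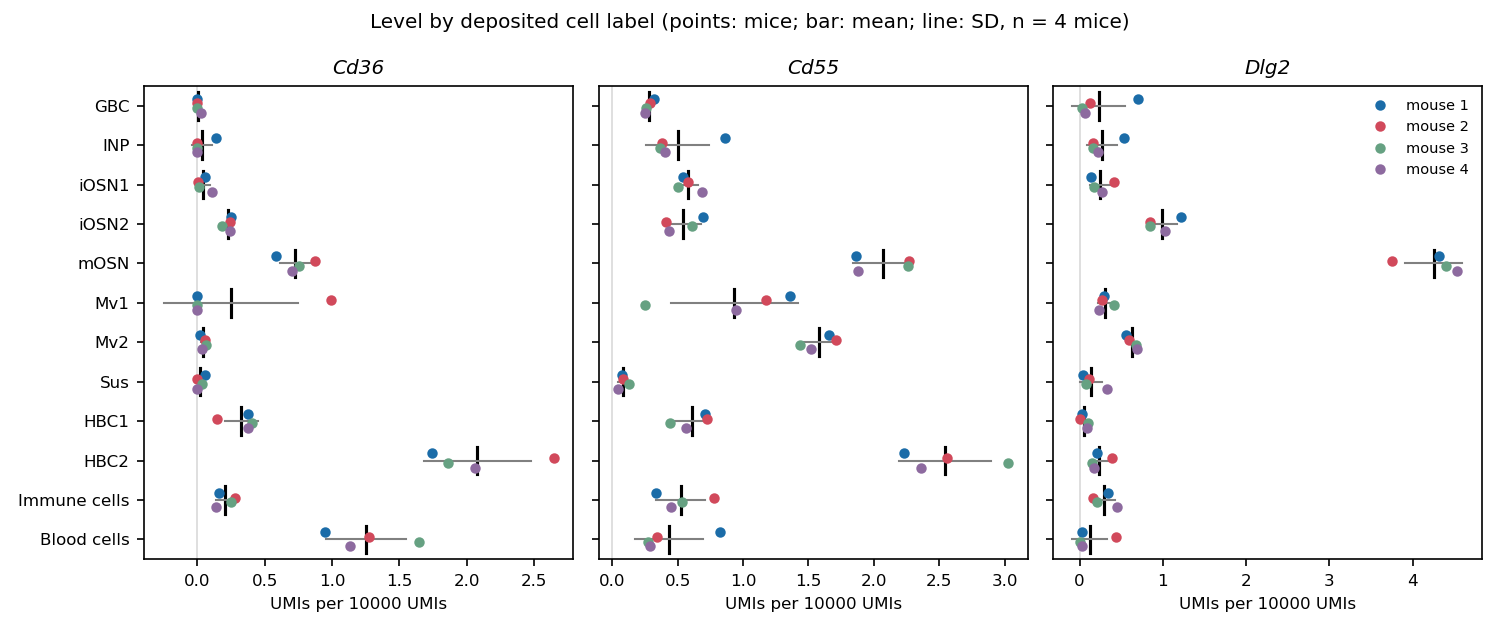
Level of Cd36, Cd55 and Dlg2 (UMIs per 10000 UMIs, x axes of different range) in each deposited cell label (y axis), with 1 point per mouse, a bar at the mean and a line for the SD over 4 mice. Cd36 and Cd55 are highest in HBC2, at 2.08 and 2.54, and Dlg2 in the mature OSNs, at 4.25.

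The deposited labels also mark immune cells and blood cells, which the authors left out of their later steps. In the immune label Cd36 was at 0.208 ± 0.068 and in the blood label at 1.25 ± 0.30. Cells with a high mitochondrial share, a sign of damage, were at 0.369 ± 0.102 for Cd36, 1.25 ± 0.34 for Cd55 and 2.23 ± 0.90 for Dlg2. The immune label pools many kinds of cell, and the 2391 immune and 314 blood cells were therefore clustered anew without the members, which gave 16 clusters. Of these, 4 could be named by at least 3 of their list's markers among the 10 leading genes.

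Cd36 was highest in the erythroid-like cluster, led by the hemoglobin genes Hba-a1 and Hba-a2, at 1.11, 2.65, 3.89 and 2.01 UMIs per 10000, a mean of 2.41 ± 1.17, with a UMI in 53.6% of its 138 cells. A second cluster from the blood label, led by Hemgn, Car1 and Aqp1, stood at 0.585 ± 0.096. The monocyte or macrophage-like cluster, led by the complement genes C1qa, C1qb and C1qc, was at 0.425 ± 0.124, with a UMI in 10.98% of 246 cells. A cluster of 163 cells led by the lymphocyte genes Gzma, Ccl5 and Trbc2 had 0 Cd36 UMIs, which allows up to 1.84% of cells with a UMI and sets no limit on cells that express the gene below detection.

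Cd55 among the same cells was highest in a cluster of 364 cells led by the immunoglobulin genes Igha, Jchain, Igkc and Ighd, at 1.79, 4.40, 3.68 and 3.93, a mean of 3.45 ± 1.15, with a UMI in 44.0% of cells. A second cluster with B cell genes (Vpreb3, Cd79b) was at 1.17 ± 0.59. The erythroid-like cells held Cd55 at 0.00668, and the monocyte or macrophage-like cells at 0.0570 ± 0.0659. The cluster highest for Cd36 was thus near 0 for Cd55, and the cluster highest for Cd55 was at 0.109 ± 0.126 for Cd36.

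Dlg2 in the immune and blood labels came mostly from a cluster of 161 cells that carried neuronal genes (Stoml3, S100a5, Omp). This mature olfactory neuron-like cluster was at 1.77 ± 0.49 and held 233 of the 286 Dlg2 UMIs of both labels, or 81.5%, together with 24.2% of the Cd36 and 26.7% of the Cd55 UMIs. Its cells held a median of 6733 UMIs, and a median of 3.07 times the typical count of the immune and blood cells of the same library. Whether these barcodes hold a neuron and an immune cell together was not tested. Dlg2 had 0 UMIs in the immunoglobulin cluster. A cluster of 55 cells led by Dntt, Vpreb1 and Igll1 held 17 Dlg2 UMIs, in 14 of its cells (25.5%). It stood at 1.15 in mouse 2, the only mouse with 10 or more of these cells.

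Within the mature OSNs the deposited annotation has 10 clusters, of which 6 are named for the members, each in a dorsal (D.) and a ventral (V.) form. Cd36 was at 8.96, 9.28, 8.55 and 10.0 UMIs per 10000 in Cd36+ V., a mean of 9.20 ± 0.62, and at 9.15 ± 0.53 in Cd36+ D., and 96.9% and 97.0% of their cells had a UMI. Outside these clusters it was at or below 0.0702. Cd55+ D., Cd55+ V. and Dlg2+ D. held 0 Cd36 UMIs in 142, 352 and 435 cells, which allows shares of cells with a UMI of up to 2.11%, 0.852% and 0.690%. These limits cover counting error only and are no limits on the share of cells that express the gene.

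Cd55 was highest in Cd55+ V., at 16.9, 17.4, 18.0 and 17.4, a mean of 17.4 ± 0.5, and in Cd55+ D. at 14.7 ± 2.6. The Cd36+ clusters were also rich in Cd55, at 8.91 ± 0.98 in Cd36+ D. and 6.92 ± 0.32 in Cd36+ V., with no overlap in range with the Cd55+ clusters above or with the remaining clusters below, which lay between 0.446 and 1.02.

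Dlg2 was at 26.3, 22.1, 24.7 and 27.1 in Dlg2+ V., a mean of 25.02 ± 2.20, and at 10.7 ± 1.1 in Dlg2+ D. The Cd36+ V. and Cd36+ D. clusters followed at 4.04 ± 0.86 and 2.28 ± 0.92, and Calb2+ V., named for the calcium-binding protein calretinin, was lowest at 0.433 ± 0.065. A Dlg2 UMI was found in 20.7% to 48.9% of cells in the clusters not named for it, above the 4.71% of the sustentacular cells. Not all of these clusters exceeded the Mv2 cells, of which 26.8% had a Dlg2 UMI. The share was 20.7% in Calb2+ V. and 24.2% in Cd55+ V. The member that names a cluster was used to define it, so its level there is a description.

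**Figure D2:**
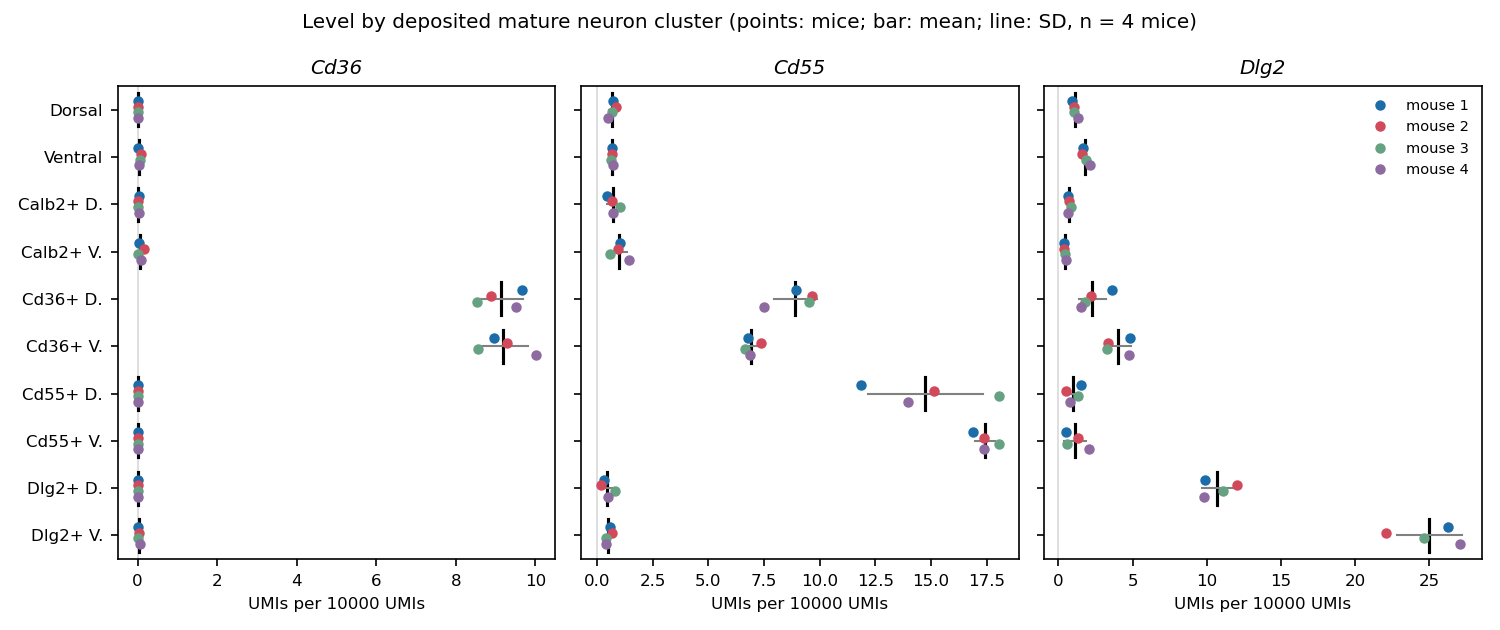
Level of Cd36, Cd55 and Dlg2 (UMIs per 10000 UMIs, x axes of different range) in the 10 deposited clusters of mature OSNs (y axis), with 1 point per mouse, a bar at the mean and a line for the SD over 4 mice. Cd36 is high in 2 clusters, Cd55 in the same 2 and in its own 2, and Dlg2 above all in Dlg2+ V., at 25.02.

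Receptor populations give a view that does not rest on the clustering, since a neuron's receptor was called from receptor genes alone. The 353 receptors with 10 or more identified mature OSNs held 7096 of the 9791 neurons with an identity. For each population the share of its neurons with a UMI of the member was computed, and a population was called high at 50% or more.

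Cd36 divided the populations into a small group with the transcript and a large group without. In 295 populations, with 5889 neurons, not a single Cd36 UMI was found. In 35 populations at least 50% of neurons had a UMI, and those populations held 98.0% of the 2274 Cd36 UMIs found in the 353 populations. This is 57.2% of the 3895 Cd36 UMIs of all mature OSNs, those outside the 353 populations included. Only Olfr1213, at 73.3%, lay between 25% and 75%. The next population below was Olfr1205 at 13.3%, so the same 35 populations were called high at a limit of 25%, and 34 at 75%. Counted mouse by mouse, 123 of the 125 pairs of a high population and a mouse with at least 2 of its neurons were at 50% or more. The same neurons had chosen the high populations, so this count is no independent check. In the neurons of the other 318 populations, 24 of 6570 (0.365%) had a Cd36 UMI.

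Cd55 had a wider range. It had 0 UMIs in 157 populations with 2726 neurons and was high in 84 populations, which held 90.6% of its UMIs in the 353 populations. In the neurons of the remaining 269 populations, 431 of 5470 (7.88%) had a Cd55 UMI. At limits of 25% and 75% the high populations numbered 113 and 52. Dlg2 was at 0 UMIs in only 5 populations and high in 136, with 85.8% of its UMIs in the 353 populations, and its shares formed a continuous series with 259 populations at 25% or more and 76 at 75% or more. The number of high populations therefore depended on the limit for Cd55 and Dlg2 and hardly for Cd36.

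**Figure D3:**
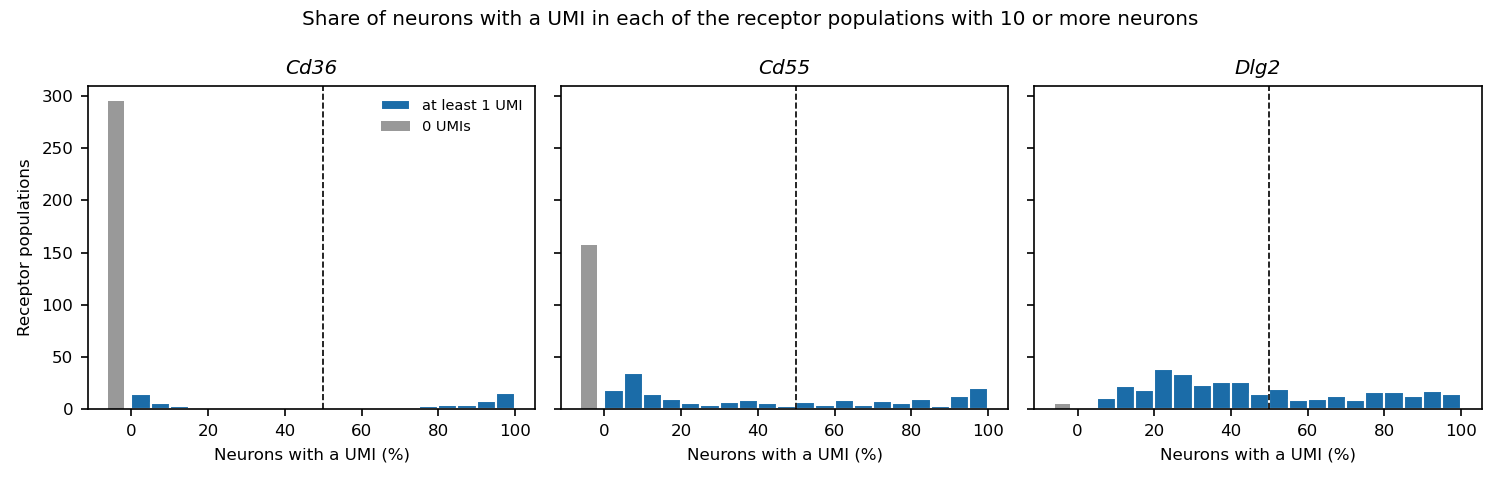
Number of receptor populations (y axis) by the share of their neurons with a UMI of Cd36, Cd55 or Dlg2 (x axis, percent), over the 353 populations with 10 or more neurons. Gray bars, drawn left of 0, count populations with 0 UMIs (295, 157 and 5), blue bars those with at least 1 UMI in steps of 5 points, and the dashed line is the 50% limit.

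The highest populations of each member differed. For Cd36 they were Olfr287 at 17.2, 12.5 and 19.4 UMIs per 10000 in the 3 mice with enough neurons, a mean of 16.4 ± 3.6, Olfr1313 at 16.0 ± 5.6 (n = 3), Olfr1213 at 13.6 ± 7.5 (n = 3), Olfr1312 at 13.5 ± 4.8 (n = 4) and the class I receptor Olfr665 at 12.0 ± 5.2 (n = 4). Most Olfr1213 neurons, 53.3%, carried the deposited label Calb2+ V. and not a Cd36+ label. For Cd55 they were Olfr1431 at 25.8 ± 7.8, Olfr354 at 24.3 ± 2.6, the class I receptor Olfr592 at 24.1 ± 9.1, and Olfr835 and Olfr358 at 19.99 ± 5.22 and 19.99 ± 7.88, the last 2 in 3 mice. Olfr354 was the steadiest of them, at 21.2, 23.8, 24.8 and 27.6.

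For Dlg2 the highest was Olfr1018 at 24.8, 58.4, 60.0 and 28.9, a mean of 43.0 ± 18.8. The class I receptor Olfr571 followed at 77.4, 11.3, 41.3 and 12.8, a spread over mice nearly as wide as its mean of 35.7. Olfr76, Olfr599 and Olfr63 were at 34.6 ± 10.7, 34.5 ± 17.4 and 30.4 ± 14.0 (n = 3 each), and the ranges of these 5 populations overlapped. The largest populations, Olfr728, Olfr1348, Olfr1226, Olfr55 and Olfr239, with 71 to 83 neurons, were not high for any member except Olfr728, in which 71.1% of neurons had Cd55, at 5.72, 2.93, 3.71 and 6.67 in mice 1 to 4.

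At the limit of 50%, most Cd36 populations were also Cd55 populations. Of the 35 populations high for Cd36, 33 were high for Cd55, which is 94.3% of the former and 39.3% of the latter, and no population was high for Cd36 alone. At a limit of 25% all 35 were high for both, while at 75% it was 25 of 34 (73.5%), and 5 were then high for Cd36 alone. All 3 members were high in 12 populations, Cd36 with Cd55 in 21 and Cd36 with Dlg2 in 2. Another 51 populations were high for Cd55 and not for Cd36. In those, 1137 neurons held 14 Cd36 UMIs, and 46 of the 51 had none. Their Cd55 level had a median of 6.78, against 5.91 in the Cd36-high populations, where it ran from 1.08 to 16.6. Dlg2 was high in 14 of the 35 Cd36 populations (40%), 27 of the 84 Cd55 populations (32.1%) and 136 of all 353. It was high alone in 107 populations, and 160 were high for none of the 3.

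The high populations were not spread evenly over the receptor gene clusters. On chromosome 10 between 129108952 and 130214403 lay the genes of 27 populations, of which 20 (74.1%) were high for Cd36, against 15 of the 326 populations elsewhere (4.60%). For Cd55 the counts were 22 of 27 (81.5%) and 62 of 326 (19.0%). For Dlg2 they were 10 of 27 (37.0%) and 126 of 326 (38.7%). A cluster on chromosome 2, from 111314017 to 112077843, held 4 Cd36-high populations of 8 (Olfr1305, Olfr1307, Olfr1312 and Olfr1313), and the class I cluster held 4 of 44 (Olfr553, Olfr554, Olfr665 and Olfr666). The clusters were singled out after their values were seen, and no test was made of them.

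Within the chromosome 10 cluster, neighbors could still differ. Olfr775 (129248412 to 129253924) and Olfr776 (129259127 to 129264298) are 5.20 kb apart and had 27 neurons each. None of the 27 Olfr775 neurons had a Cd36 UMI, while all 27 Olfr776 neurons did, at 14.3, 5.69, 10.4 and 8.35 UMIs per 10000. The same pair differed little in Cd55, with 15 and 18 of 27 neurons, and in Dlg2, with 23 and 22. Olfr820, with 46 neurons, had neither Cd36 nor Cd55, and Olfr825 and Olfr827 had Cd55 in all of their neurons and Cd36 in none. Over the 241 pairs of neighboring populations less than 100 kb apart, both were high for Cd36 in 20 pairs and only 1 in 18. For Cd55 these counts were 30 and 63, and for Dlg2 39 and 108. Neither was high in 203, 148 and 94 pairs for Cd36, Cd55 and Dlg2. Of all 353 populations, 9.92%, 23.8% and 38.5% were high. A gene that is high in more populations has more shared pairs by frequency alone, and the pairs were not tested.

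**Figure D4:**
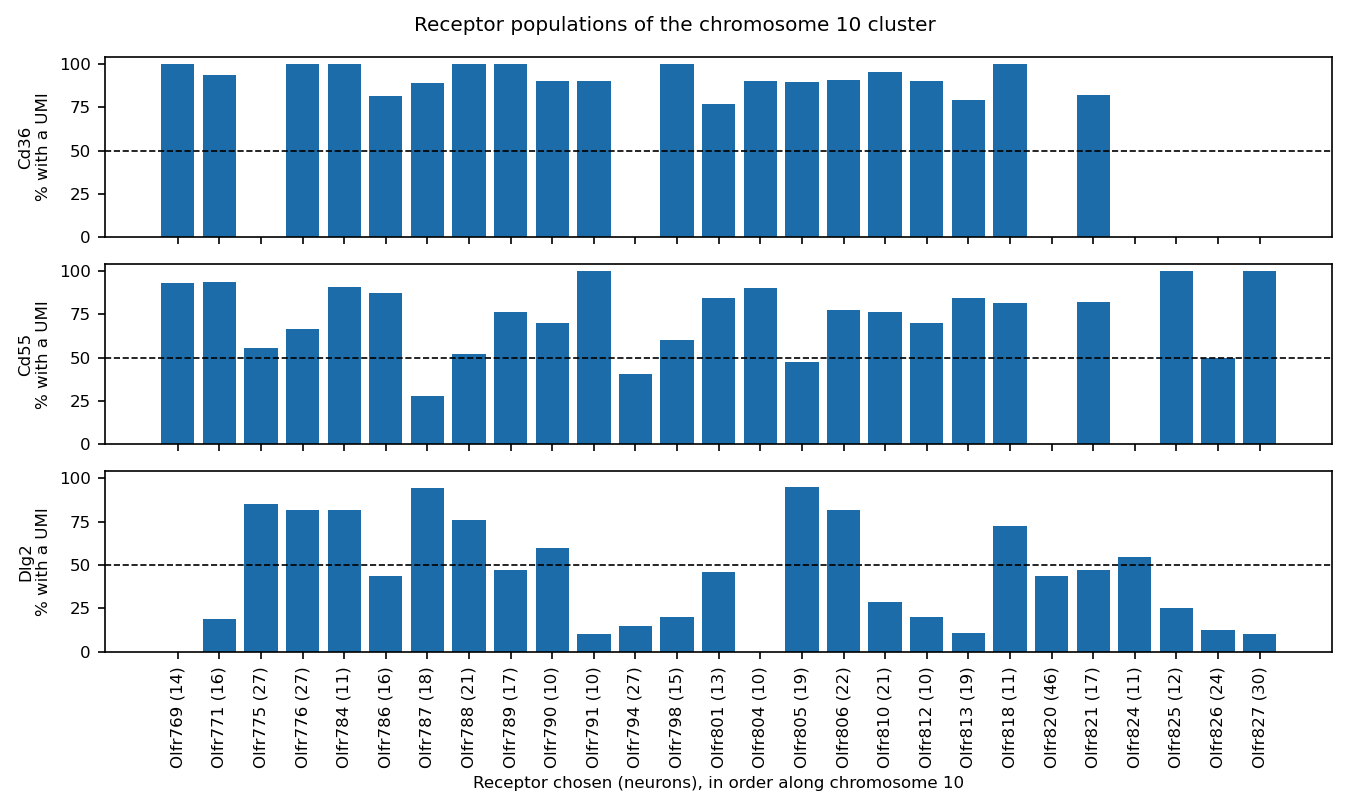
Share of neurons with a UMI of Cd36, Cd55 and Dlg2 (y axes, percent, from 0) for the 27 receptor populations of the chromosome 10 cluster, in the order of their genes, with the number of neurons in brackets. The dashed line is the 50% limit; 20 populations exceed it for Cd36, 22 reach it for Cd55 and 10 exceed it for Dlg2.

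A test between populations needed 5 or more neurons of a population from every mouse, which left 42 populations with 1782 neurons. Cd36 had 6 UMIs in all of them together and did not pass the filter of 50 UMIs, so the Cd36-high populations are absent from this test and Cd36 was not tested. In edgeR's quasi-likelihood test with the mouse as a block, 1612 of 9764 genes differed among populations at an adjusted p below the threshold, which is 16.5%, and Cd55 and Dlg2 were both among them. By the F statistic Cd55 ranked 6 (F = 126) and Dlg2 12 (F = 46.7). The place of Dlg2 depended on the setting, at 36 in DESeq2, 22 with filterByExpr (F = 26.8) and 8 without mouse 2, and its F was 29.0 without mouse 3. For Cd55 the SD between population means was 5.94 UMIs per 10000 and the median SD between mice of the same population 0.214. For Dlg2 these were 3.00 and 0.392. The median SD mostly describes populations near 0, since the median population mean was 0.277 for Cd55 and 0.879 for Dlg2. Cd55 was at 0 in 71 of the 168 sums. Populations rich in the gene varied more over mice. With receptor genes left out of the total, Olfr354 was at 24.5 ± 2.68 for Cd55 and Olfr455 at 15.2 ± 7.59 for Dlg2.

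By receptor class, the summed level of Cd36 and of Cd55 was higher in neurons with a class I receptor than in class II neurons. Cd36 was at 0.548, 0.859, 0.672 and 0.700 in class II and 1.04, 1.61, 1.32 and 0.930 in class I, and Cd55 at 1.88 ± 0.19 against 4.04 ± 0.90. Both were called in edgeR's quasi-likelihood test, as were 18.6% of all genes tested, 9.71% as higher and 8.89% as lower in class I. The share of populations called high did not follow the level for Cd36, at 4 of 44 in class I (9.09%) and 31 of 306 in class II (10.1%), while for Cd55 it was 17 of 44 (38.6%) and 67 of 306 (21.9%). Class I neurons are mostly dorsal, with 967 of 1071 in the dorsal clusters against 1722 of 8641 class II neurons, and the comparison was therefore repeated within the dorsal clusters. There the differences were larger, at a log2 change of 1.73 ± 0.11 (SE) for Cd36 and 2.30 ± 0.08 for Cd55. Of the 35 Cd36-high populations, 4 were class I and 7 had a dorsal cluster as their most frequent. The dorsal difference in Cd36 may therefore rest on few receptors. The SE of a log2 change is the size of the change divided by the square root of its F statistic. It does not measure the spread over mice. Dlg2, which was lower in class I over all neurons (3.67 ± 0.85 against 4.35 ± 0.32), was higher in class I among dorsal neurons, with a log2 change of 0.48 ± 0.07 and an adjusted p of 5.96e-07 in edgeR's quasi-likelihood test. Its lower level over all neurons was not called without mouse 2, where the log2 change was -0.068 (adjusted p = 0.322 in edgeR), nor without the mouse as a block (adjusted p = 0.475) or in DESeq2 (adjusted p = 0.516). The comparison within dorsal clusters was a single fit, to which none of these alternatives was applied. Those clusters were also made with the members among the genes.

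Immature OSNs can already be assigned a receptor, which allowed the members to be read below the mature label. The values of these cells had not chosen the high populations. The iOSN2 cells already carried mature markers. Their mature olfactory neuron list (Omp, Adcy3 and others) summed to 193, against 263 in mature OSNs and 36.6 in iOSN1. The immature list (Gap43, Gng8 and others) summed to 35.6 in iOSN2, 7.39 in mature OSNs and 149 in iOSN1. A receptor was assigned to 532 of 866 iOSN1 and 899 of 1006 iOSN2 cells. Only those with a receptor of the 353 populations were used. The paper describes its receptor call for mature OSNs. An expression limit of 8.28 UMIs per 10000 gave the deposited identity in 9791 of 9791 mature OSNs, a comparison that did not cover immature cells. Among iOSN2 cells with a receptor of a Cd36-high population, Cd36 was at 0.884, 2.07, 2.01 and 2.59 UMIs per 10000, a mean of 1.89 ± 0.72, against 0.00686 ± 0.0137 in iOSN2 cells with the receptors of the other populations. A UMI was found in 18 of 51 cells and in 2 of 429. The difference had the same sign in 4 of 4 mice, with p = 0.125 in an exact two-sided sign-flip permutation test, the smallest that 4 mice can give. Among iOSN1 cells there were 3 of 23 against 1 of 257, and the level was higher in 3 of 4 mice (exact permutation p = 0.25).

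Cd55 and Dlg2 were also higher in iOSN2 cells with the receptors of their own high populations. Cd55 was at 2.13, 1.29, 2.14 and 1.47 against 0.111 ± 0.084, with 44 of 103 cells against 20 of 377, and Dlg2 at 1.04, 2.16, 1.44 and 1.63 against 0.504 ± 0.154, with 73 of 150 against 91 of 330. Both differences had the same sign in 4 of 4 mice (exact permutation p = 0.125 for each). In iOSN1 cells Cd55 was at 0.521 ± 0.535 against 0.258 ± 0.058 and higher in 2 of 4 mice (exact permutation p = 0.625), a difference that rests on mouse 1, since without it the mean difference was -0.011. Dlg2 was at 0.325 ± 0.179 against 0.227 ± 0.137 in iOSN1 cells and higher in 4 of 4 mice (exact permutation p = 0.125). Mouse 2, at 0.557 against 0.325, differed most, and without it the mean difference fell from 0.0980 to 0.0534. In mature OSNs the same receptors stood at 8.39, 8.78 and 9.38 UMIs per 10000 for Cd36, Cd55 and Dlg2, values that define the high populations and are given for scale.

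**Figure D5:**
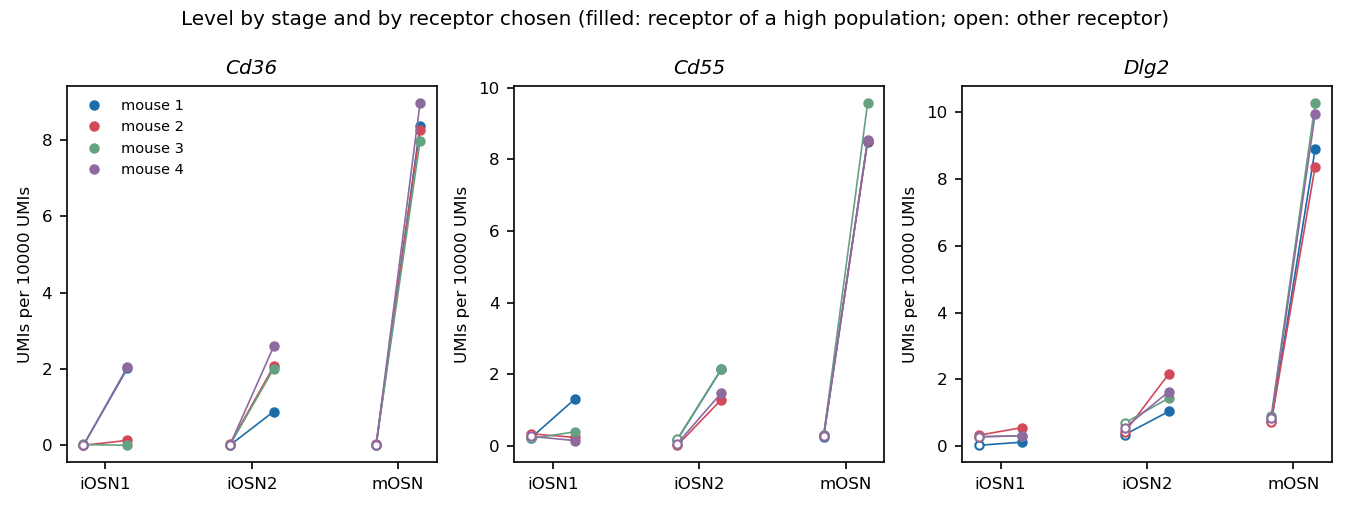
Level of Cd36, Cd55 and Dlg2 (UMIs per 10000 UMIs, y axes of different range) in immature (iOSN1, iOSN2) and mature (mOSN) OSNs, by mouse (color). Filled points are cells with a receptor of a population high for that gene, open points those of the other populations with 10 or more neurons, and lines join values of a mouse. In iOSN2 the filled point lies above the open point in 4 of 4 mice for each gene.

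Whether single neurons carry the members together was asked in the 4983 mature OSNs with at least 5000 UMIs, each thinned to 5000. Cd36 and Cd55 were found together more often than their frequencies give, in 341 neurons against 102.05 expected if they were independent within each mouse. Of the Cd36-positive neurons 86.3% ± 2.9 (SD, n = 4) also had Cd55, against 20.8% ± 1.9 of the Cd36-negative ones, and of the Cd55-positive neurons 26.8% ± 3.9 had Cd36. The log2 odds ratio was 4.64, 5.06, 4.43 and 4.10 in mice 1 to 4, a mean of 4.56 ± 0.41. Cd36 and Dlg2 had a log2 odds ratio of 0.52 ± 0.30 and Cd55 and Dlg2 one of -0.31 ± 0.20. At this setting each of the 3 had the same sign in 4 of 4 mice, and the exact sign-flip permutation p was 0.125 for each, the smallest possible. The value for Cd36 and Dlg2 depended on the setting. It was 0.13 with the same sign in 3 of 4 mice (exact permutation p = 0.375) at 3000 UMIs, 0.29 in 3 of 4 (exact permutation p = 0.25) where detection took 2 or more UMIs, and 0.16 without thinning. For Cd55 and Dlg2 it was -0.52 at 3000 UMIs and -0.51 with 2 or more UMIs, negative in 4 of 4 mice in both.

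Within receptor populations, which compares only neurons with the same receptor, few neurons were informative. Cd36 and Cd55 gave values in 2 mice only, -0.60 and 1.32 on the log2 scale. At 3000 UMIs they gave values in 4 mice, 0.45 to 1.46 with a mean of 0.86, and without thinning 0.54 to 3.51 with a mean of 1.83. With detection at 2 or more UMIs the mean was 0.71, positive in 2 of 3 mice (exact permutation p = 0.5). Cd36 and Dlg2 gave 0.75, 0.85 and 3.39 in 3 mice (exact permutation p = 0.25), but the sign did not hold across settings. Their mean was -0.0074 at 3000 UMIs (positive in 2 of 4 mice), 0.46 with detection at 2 or more UMIs (positive in 1 of 3) and 0.88 without thinning (positive in 3 of 4). Cd55 and Dlg2 gave 0.15, 1.20, 0.29 and 1.30, a mean of 0.74 ± 0.60 with the opposite sign to the value over all neurons, in 4 of 4 mice (exact permutation p = 0.125). At 3000 UMIs that mean was 0.11 and positive in 2 of 4 mice (exact permutation p = 0.75), and with detection at 2 or more UMIs it was 0.51 and positive in 3 of 4 (exact permutation p = 0.25). Without thinning, where depth differs between neurons, it was 0.73 ± 0.12 and positive in 4 of 4 (exact permutation p = 0.125). By combination, 38.5% ± 2.3 of neurons had none of the members, 34.2% ± 0.6 had Dlg2 alone, 11.7% ± 0.5 Cd55 alone, 7.39% ± 1.496 Cd55 with Dlg2, 3.70% ± 0.72 all 3, 3.36% ± 0.91 Cd36 with Cd55, 0.712% ± 0.179 Cd36 with Dlg2 and 0.381% ± 0.173 Cd36 alone.

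The genes with the most similar pattern over the 353 populations were sought among 8355 genes by the correlation of log2 levels. These correlations are across populations that share libraries and are given as descriptions. For Cd36 they were Tshz1, a zinc finger transcription factor (r = 0.81), Klkb1, which encodes plasma prekallikrein (0.77), Cyp4v3, a fatty acid hydroxylase (0.77), Zfp407 (0.69) and Dio2, a deiodinase that activates thyroid hormone (0.62). Its most opposite gene was Acbd7 (-0.72), and Tshz2, a relative of Tshz1, was at -0.67. For Cd55 they were Tppp3 (0.84), a tubulin-binding protein, the protocadherin Pcdh11x (0.82), Cfap52 (0.76), Mboat1 (0.75) and Dio2 (0.75), and the most opposite was Mslnl (-0.89). For Dlg2 they were Rasgrp4 (0.83), an exchange factor for Ras, Nphs1 (0.71), which encodes nephrin, S100a2 (0.71), Pcp4l1 (0.70) and S100a6 (0.69). Between the members r was 0.51 for Cd36 and Cd55, -0.03 for Cd36 and Dlg2 and -0.12 for Cd55 and Dlg2. Dlg2 correlated at 0.63 with S100a5, a calcium-binding protein of OSNs, and at -0.50 with Calb2, and Cd55 at -0.51 with the mature OSN marker Omp.

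The same neurons, thinned to 5000 UMIs, were then split by whether they had a UMI of a member, and all other genes but the receptors were compared within mice. For Cd36 this is nearly a split by receptor population. Before thinning, 482 of 526 neurons of the Cd36-high populations had a UMI, against 24 of 6570 of the other populations. Neurons with the same receptor were not compared for these genes. Of 9990 genes, 985 (9.86%) differed between the 395 neurons with Cd36 and the 4588 without in edgeR's quasi-likelihood test, 4.83% as higher and 5.03% as lower. Cd55 rose from 1.55, 1.80, 1.88 and 2.09 UMIs per 10000 to 7.52, 7.59, 7.31 and 7.72, a log2 change of 2.08 ± 0.06 (SE; adjusted p = 7.57e-36 in edgeR). This is the co-detection of these neurons on another scale and adds no independent evidence. Dlg2 was at 4.60 ± 0.34 without and 4.34 ± 1.25 with Cd36, higher in 2 mice and lower in 2, and was not called (log2 change -0.11 ± 0.07, adjusted p = 0.424 in edgeR). That value moved to -0.24 without mouse 1, where it was called, and to 0.022 without mouse 3. In all 3 splits the SE again comes from the F statistic and does not measure the spread over mice.

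The largest rises with Cd36 were in Klkb1 (log2 change 4.84), Cyp4v3 (4.28), Tshz1 (4.05), the collagen gene Col27a1 (3.72) and Dio2 (3.23). Tshz1 went from 0.563 ± 0.086 to 9.07 ± 0.80 UMIs per 10000. The largest falls were in Ptn, which encodes the growth factor pleiotrophin (-3.94), the metalloprotease gene Adam28 (-3.61), the tubulin gene Tuba4a (-3.49), Cadps2, which acts in vesicle release (-2.92), and Cidea, a lipid droplet protein (-2.81). Of the list of fatty acid uptake and handling genes, 10 were tested and 0 were called with Cd36, beside 9.86% of all genes tested, at a median log2 change of -0.07 against 0.0015 for all genes.

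By Cd55, 1605 of 10294 genes (15.6%) differed between 1271 neurons with and 3712 without it, 7.75% as higher and 7.84% as lower. Cd36 rose from 0.0863 ± 0.0230 to 2.52 ± 0.24 (log2 change 4.88 ± 0.09), and Dlg2 fell from 4.82 ± 0.55 to 3.84 ± 0.22, a log2 change of -0.34 ± 0.04 that was downward in 4 of 4 mice (adjusted p = 5.67e-14 in edgeR). Both are again the co-detection of the same neurons and add no independent evidence. Beside Cd36, the largest rises were in Pcdh11x (4.37), Zpld2 (4.25), Dio2 (3.83) and Gm49542 (3.30). The largest falls were in the neuropeptide gene Avp (-6.28), Tuba4a (-3.76), Adam28 (-3.62), Mslnl (-2.94) and Ptn (-2.33). Mslnl, a relative of mesothelin, went from 4.44 ± 0.19 to 0.588 ± 0.049. Avp was uneven over mice without Cd55, at 1.37, 0.0556, 0.133 and 0.830. Of the complement regulators, 2 of 17 listed genes were tested and Susd4, which inhibits complement, fell from 0.330 to 0.210.

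By Dlg2, 1117 of 10630 genes (10.5%) differed between 2265 neurons with and 2718 without it, 5.04% as higher and 5.47% as lower. That count depended on the setting, at 277 (2.61%) both in DESeq2 and without the mouse as a block, and 673 without mouse 1. Cd55 fell from 2.63 ± 0.27 to 1.89 ± 0.37 (log2 change -0.50 ± 0.05, 4 of 4 mice, adjusted p = 3.80e-18 in edgeR). Cd36 rose from 0.637 ± 0.158 to 0.826 ± 0.114 (0.38 ± 0.08, 4 of 4 mice, adjusted p = 5.14e-05 in edgeR), a call that was lost when detection required at least 2 Dlg2 UMIs (adjusted p = 0.156), without the mouse as a block (0.122) and in DESeq2 (0.0825). Without thinning the log2 change was 0.13 (adjusted p = 0.0456 in edgeR). These also restate the co-detection and add no independent evidence. The largest rises were in Nphs1 (2.60), Rasgrp4 (2.52), S100a6 (1.87), Pcp4l1 (1.67) and Hectd2os (1.62), and the largest falls in Calb2 (-1.44), the synaptic gene Rims3 (-1.23), Necab3 (-1.19), the coagulation factor gene F8 (-0.89) and Cotl1 (-0.83). Pcp4l1 went from 9.97 ± 1.41 to 30.9 ± 4.1 and S100a5 from 156 ± 13 to 358 ± 34.

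The membrane-associated guanylate kinases and their partners, the family and binding partners of Dlg2, included 18 tested genes, of which 2 rose and 2 fell with Dlg2. Dlg4, which encodes PSD-95, rose by a log2 change of 0.22 and the adhesion gene Nlgn3 by 0.45, in 3 of 4 mice each. The scaffold gene Homer2 fell, with a log2 change of -0.15, in 4 of 4 mice. With Cd36, 5 of 17 were called, among them Dlg1 and Nlgn3 upward and Dlgap3 and Adam23 downward, and with Cd55 4 of 18, among them Dlg1 and Adam22 upward and Dlgap3 downward. The shares called, 22.2% to 29.4%, compare with 9.86% to 15.6% of all genes, and the median log2 change of this list lay between -0.04 and 0.04. Fatty acid genes were called in 4 of 10 by Cd55, where Acsl6 (0.28) and Acsl3 (0.45) rose and Slc27a2 (-0.42) and Ppard (-0.67) fell, and in 1 of 10 by Dlg2, where Acsl6 fell (-0.22). Of the complement list, 0 of 2 were called by Cd36 and 0 of 3 by Dlg2.

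The 9 genes that mark neuron position and subset were called in 6 cases by Cd36, 9 by Cd55 and 6 by Dlg2, that is 66.7%, 100% and 66.7%, against 9.86%, 15.6% and 10.5% of all genes tested. The paper had used several of them, Nqo1, Nfix, Calb2, Cidea and S100a5, to tell apart clusters or populations of these same neurons. Their share of calls is therefore a description and no evidence. Calb2 fell with each member, by log2 changes of -2.30, -0.58 and -1.44, in 4, 3 and 4 of 4 mice. Nqo1, a marker of dorsal neurons, was lower with Cd36 (-0.20, in 3 of 4 mice) and Dlg2 (-0.60) and higher with Cd55 (0.48). S100a5 rose with Cd36 (0.29) and Dlg2 (1.22) and fell with Cd55 (-0.21). Cidea fell with Cd36 (-2.81) and Cd55 (-1.62) and rose with Dlg2 (0.26). The 3 splits use the same neurons and are not independent of each other.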

How the data were processed

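The deposited matrices hold UMI counts per gene and cell, made by the authors with Cell Ranger 6.0.1 on GRCm38 with redrawn 3′ ends of receptor genes, without normalization. A deposited table of cells adds UMI counts, the percent of mitochondrial UMIs and the ratio of UMIs to detected genes, all computed by the authors per cell, with the cell type and neuron cluster they assigned in Seurat and the receptor identity. Its UMI totals differed from those of the matrices in 0 cells. The authors' final cell types leave out immune, blood and high-mitochondrial cells. Counts were summed per mouse and group of cells, and scaled to 10000 UMIs. The members and gene lists were chosen with earlier results of these data known.

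Tests over all genes other than receptors used edgeR 4.0.16 in R 4.3.3 (limma 3.58.1; TMM; quasi-likelihood test; Benjamini-Hochberg at 0.05) with filterByExpr, or 50 UMIs for the populations. Groups of neurons from the same animal and library are paired by the mouse, which was a block (deviations correlated within mice at 0.0826 to 0.374). In simulated data, 86% of 200 genes changed 3-fold were recovered for the populations (9667 genes), and of genes changed 2-fold 57.3% for class (11657 genes) and 54.3%, 67% and 59.5% for the splits by Cd36 (9789), Cd55 (10140) and Dlg2 (10452). The false share among called genes was 1.83% to 6.29%. The simulated counts had a single fixed dispersion and no effect of the mouse, so these shares need not hold for the real tests. Alternatives included DESeq2 1.42.0, no block, other filters and leaving out each mouse. Levels and co-detection used Python 3.11.15 and scipy 1.17.1. Immune and blood cells were clustered in scanpy 1.11.5 (2000 variable genes, 20 components, 15 neighbors, resolution 0.5), and the need for 3 markers among the leading 10 was set after seeing the data. Scrublet called 3, 2, 4 and 36 barcodes as doublets and did not work in 3 of the mice, so the 4% with the highest scores were left out as an alternative.

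Named were the members, for each the 5 populations with the highest level and 5 genes most alike (log2 of the level plus 0.1, genes at 0.1 or more on average), the 5 largest populations, and per split the 5 largest rises and falls at 0.5 or more UMIs per 10000 that went the same way in every mouse, with the list genes called, of which some are not reported here. Clusters on chromosomes 2 and 10 and the receptors described there were chosen after their values were seen. Sequences are RefSeq's, and no protein sequence was used here.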

Additional observations from a re-analysis of the deposited data

Results flagged for a closer look

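Of the 69 sets of 4 mouse values examined for a mouse far from the others (Dixon's test), 8 stood out, and chance alone gives about 1 in 20. All 8 come from cell types outside the mature OSNs, most of them small. For Cd36, the mean of 0.227 UMIs per 10000 in iOSN2 cells held mouse 3 at 0.181 with the others at 0.240 to 0.247. The mean of 0.327 in HBC1 held mouse 2 at 0.144 with the others at 0.377 to 0.409. The mean of 0.249 in Mv1 was mouse 2 alone, at 0.995 with the others at 0, from 11 UMIs. The mean of 0.0354 in the neuronal precursors was mouse 1 alone, at 0.142, from 13 UMIs in 1 of 284 cells, and was 0 without the 4% of barcodes most like a doublet, and that of 0.0078 in globose basal cells was mouse 4 alone, at 0.0312, from 2 UMIs. For Cd55, the precursors at a mean of 0.501 held mouse 1 at 0.861 with the others at 0.363 to 0.400. For Dlg2, mouse 1 also stood apart in the precursors, at 0.534 with the others at 0.156 to 0.218 (mean 0.268), and in globose basal cells, at 0.698 with the others at 0.0318 to 0.124 (mean 0.229, and 0.0704 without those barcodes).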

How the results depend on the processing

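Over 146 results, 1349 values were computed under other settings, and 1212 kept their direction and their side of the threshold, 109 kept the direction only, 2 passed the threshold newly, 18 moved and 8 changed sign. With no replicate block, that is without pairing by mouse, 1080 genes were called for class (2201 with it), 734 for Cd55 and 277 for Dlg2. DESeq2 gave 1017 for class and 509, 638 and 277 for Cd36, Cd55 and Dlg2. Without thinning, the splits called 2018, 2692 and 2134 genes. Within dorsal clusters 545 were called for class, and with filterByExpr 868 among populations. Leaving out each mouse gave 673 to 1004 genes for the Dlg2 split, lowest without mouse 1.

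For Dlg2 in class I the log2 change was -0.17 without the pairing and -0.20 in DESeq2, neither past the threshold, -0.23 to -0.068 when each mouse was left out, and 0.48 in dorsal clusters. There, 3 list genes also changed sign, Slc27a2 (-0.0738), Homer2 (0.15) and Cartpt (-0.12). For Dlg2 by Cd36 it was -0.17 without thinning, then past the threshold, and -0.24 to 0.022 leaving out mice. For Cd36 by Dlg2 it was 0.40 in DESeq2, 0.39 without the block and 0.20 at 2 or more UMIs, none past the threshold. Within populations the log2 odds ratio of Cd36 and Cd55 ran from -0.60 to 1.32 leaving out mice, and that of Cd36 and Dlg2 was -0.0074 when thinned to 3000 UMIs. The Cd55 difference in iOSN1 ran from -0.011 to 0.39. At other limits, chosen after seeing the data, 52 populations were high for Cd55 (75%), and 259 (25%) and 76 (75%) for Dlg2. The causes were not tested. A test of populations with 3 or more neurons per mouse was intended and not run. The 42 tested populations held 6 Cd36 UMIs, 37 of them none, so Cd36 was not tested there. Depth limits co-detection within populations, since 4983 of 10519 mature OSNs held 5000 UMIs.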
